A study of Mus musculus with 18 samples.

Results

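Fatty acids and ketone bodies are the main fuels that a cell can burn in its mitochondria in place of glucose. A fatty acid is bound in the cytosol by a carrier protein, joined to coenzyme A, carried into the mitochondrion as an acylcarnitine and shortened there in repeated rounds of oxidation, whose electrons reach the respiratory chain through the electron transfer flavoprotein. Ketone bodies are made from the resulting acetyl-CoA and are turned back into acetyl-CoA where they are burned. In the brain, astrocytes are regarded as the main site of fatty acid oxidation.

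The genes described here are 34 genes of fatty acid handling, fatty acid oxidation and ketone body use, chosen by name out of 21923 genes in the deposited count table. They fall into 9 roles, from binding proteins to ketone body enzymes. All 34 had enough counts to be tested, as did 13296 of all genes.

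RNA was measured by RNA-seq in cortical translating ribosome affinity purification (TRAP) samples of male C57BL/6 mice. EGFP-tagged ribosomal protein L10a was delivered by a Cre-dependent AAV under a human GFAP promoter, and the ribosomes pulled down with an anti-GFP matrix gave the IP libraries. The 4 IP libraries of GLUT1 conditional knockout (cKO) mice came from animals labelled GLUT1 flox/flox;GLAC +/wt, and the 3 control IP libraries from animals labelled GLAC +/wt, which the labels call WT. According to the methods, the Cre in either genotype is a tamoxifen-inducible CreERT2 at the GLAST (Slc1a3) locus, so the controls carry it too but no floxed Slc2a1. Tamoxifen was given for 5 days at 8 to 10 weeks of age, after the AAV, and RNA was collected 60 days later. The pulldown reports on cells that express the GFAP-driven tag, together with whatever RNA of other cells is carried along. In such bulk libraries, fewer cells of a type and less RNA per cell cannot be told apart. The input libraries and 2 of the 5 labelled control IP samples were not analysed here, so enrichment of these genes over whole cortex is not given. According to the methods, the authors left out a sample with very few reads and IP samples rich in neuronal transcripts. Which samples these were is not stated, so the libraries used here may already be selected for low neuronal RNA. The 2 labelled IP samples that were not used were both controls. Any such selection among the labelled IP samples would therefore have fallen on the controls only.

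The question was whether the genes of a fuel route other than glucose differ in astrocytes that have lost GLUT1. Total estimated counts lay between 12570309 and 40734343 per library, and the lowest count of any of the 34 genes in any library was 170, for Acsl1. Levels are given as CPM, counts scaled to a library of 1000000 by the TMM method. No transcript length enters them, so a level is set against the same gene in other libraries, not against other genes. Slc2a1, the targeted gene, gave no check of the labels at the level of the whole gene, with 59.5 ± 2.03 CPM (SD, n = 3) in control and 59.0 ± 2.30 CPM (SD, n = 4) in cKO libraries. The study itself reported a loss of Slc2a1 in cKO IP samples, from reads over some of its exons and by qPCR. Its source data for those exon reads gave the genotypes used here. Counts per exon are not part of the count table. The 10 astrocyte markers were present in every library, with a summed level of 30380 to 48460 CPM in control and 31790 to 61190 CPM in cKO. The summed level of 8 neuronal markers was 3130 to 4141 CPM in control and 2728 to 4185 CPM in cKO, that of 7 oligodendrocyte markers 741 to 833 CPM and 460.3 to 866.5 CPM, and that of 6 microglial markers 49.6 to 60.1 CPM and 41.2 to 81.1 CPM. In the edgeR fit described below, 2 of the 7 oligodendrocyte markers had an unadjusted p under 0.05, beside 2.58% of all tested genes. None passed after adjustment, and 0 of the astrocyte, neuronal and microglial markers had such a p. The median log2 fold change, cKO against control, was -0.36 for the oligodendrocyte and 0.03 for the neuronal markers. The part of oligodendrocyte RNA in the genotype values was not tested. Of the 6 endothelial markers, whose sum did not exceed 21.7 CPM, 4 were at 0 in at least 1 library. Ttr, a transcript of the choroid plexus, had 758 CPM in the cKO library AstroTRAP_5 and at most 5.34 CPM in any other. The labels do not tie the libraries to single animals, but a figure legend of the study counts them as 3 control and 4 cKO mice. The p-values measure the spread between these libraries, which may in part be technical.

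None of the 34 genes passed the test between genotypes. By the quasi-likelihood fit in edgeR, with p-values adjusted over all genes by the Benjamini-Hochberg method, 0 of the 34 had an adjusted p under 0.05, as against 6 of all 13296 tested genes (0.0451%), and the adjusted p of each of the 34 was 0.9996. DESeq2 and edgeR's exact test also called 0 of them. By unadjusted p under 0.05, the count was 1 of 34 (2.94%), beside 2.58% of all tested genes. The median log2 fold change, cKO against control, was -0.083 over the 34 genes and 0.012 over all tested genes. In sign, 24 of the 34 were lower and 10 higher in cKO, whereas over all tested genes 6341 were lower and 6955 higher. The count of 24 moved to 18 without AstroTRAP_15 or without AstroTRAP_17, and to 29 without AstroTRAP_1. The median coefficient of variation over the 7 libraries was 17.0% for the 34 genes and 22.5% for all tested genes. Bdh1, the hydroxybutyrate dehydrogenase, was the least variable at 8.80%, and Fabp5, a fatty acid binding protein, the most variable at 29.1%.

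The size of difference that these libraries leave possible was read from the 95% intervals of the fold changes, which are not adjusted for the number of genes. For all 34 genes the interval lay within 2-fold in either direction, as it did for 64.8% of all tested genes. For 20 of the 34 it lay within 1.5-fold, against 36.1% of all tested genes. The control mean of each of the 34 was at least 13.7 CPM, and all tested genes were not matched to them for level. These shares, like the coefficients of variation above, therefore do not compare genes of like count. The interval reached highest for Acsl4, to 1.93-fold, and for Ppara, to 1.89-fold. It reached lowest for Acads, to 0.566 of the control level, and for Crat, to 0.596.

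**Figure D1:**
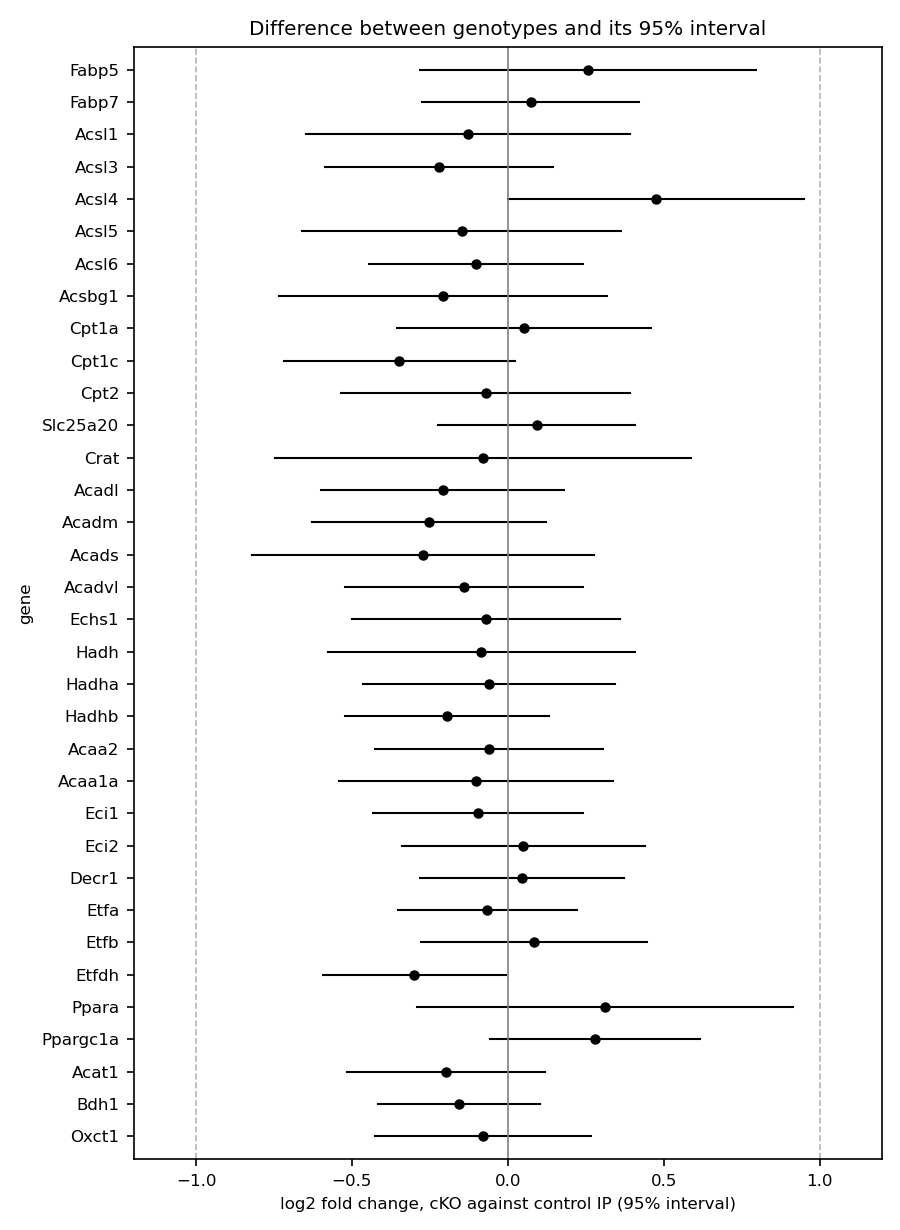
Log2 fold change of each gene, cKO against control IP libraries (points), with its 95% interval (lines), for the 34 genes; dashed lines mark 2-fold. All 34 intervals lie within 2-fold, and of these only that of Etfdh leaves out 0.

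The summed level of the 34 genes varied between libraries in a pattern that crossed the genotypes. It was 10220, 10990 and 7875 CPM in the control libraries AstroTRAP_11, AstroTRAP_15 and AstroTRAP_19. It was 11220, 8112, 9610 and 7303 CPM in the cKO libraries AstroTRAP_1, AstroTRAP_5, AstroTRAP_9 and AstroTRAP_17. The sums of AstroTRAP_17, AstroTRAP_19 and AstroTRAP_5 were thus the lowest, and the genotypes overlapped. These libraries also had the lowest sums of astrocyte markers (31790, 30380 and 32470 CPM in the same order) and the highest sums of neuronal markers (4175, 4141 and 4185 CPM). AstroTRAP_17 held the lowest value of 17 of the 34 genes, although of all tested genes 27.7% were lowest there. AstroTRAP_19 held the lowest value of 9 genes (11.8% of all tested genes), while AstroTRAP_1 and AstroTRAP_15 held the highest value of 13 and 12 genes (11.5% and 12.4% of all tested genes). The part of these markers in the genotype values was not tested beyond 2 added fits. With the neuronal marker sum as a covariate, 0 of the 34 genes passed and 24 were again lower in cKO, beside 50.1% of all tested genes. Leaving out these 3 libraries left 2 control and 2 cKO libraries. In that fit 0 passed and 19 were lower, beside 50.2% of all tested genes.

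**Figure D2:**
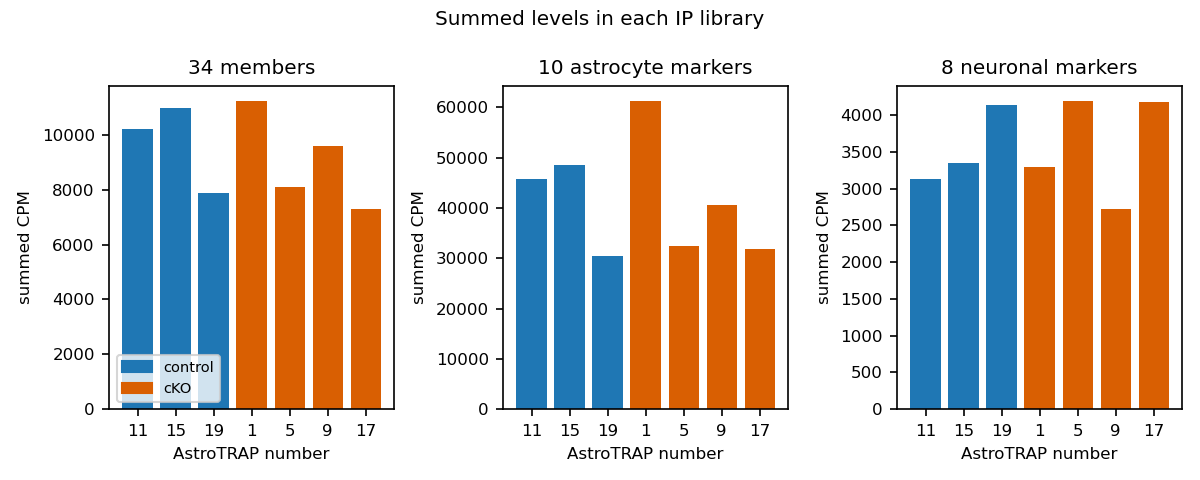
Summed CPM of the 34 genes, of 10 astrocyte markers and of 8 neuronal markers in each IP library (bars; blue, control; orange, cKO). AstroTRAP_19, AstroTRAP_5 and AstroTRAP_17 have the lowest sums in the first 2 panels and the highest in the third.

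**Figure D3:**
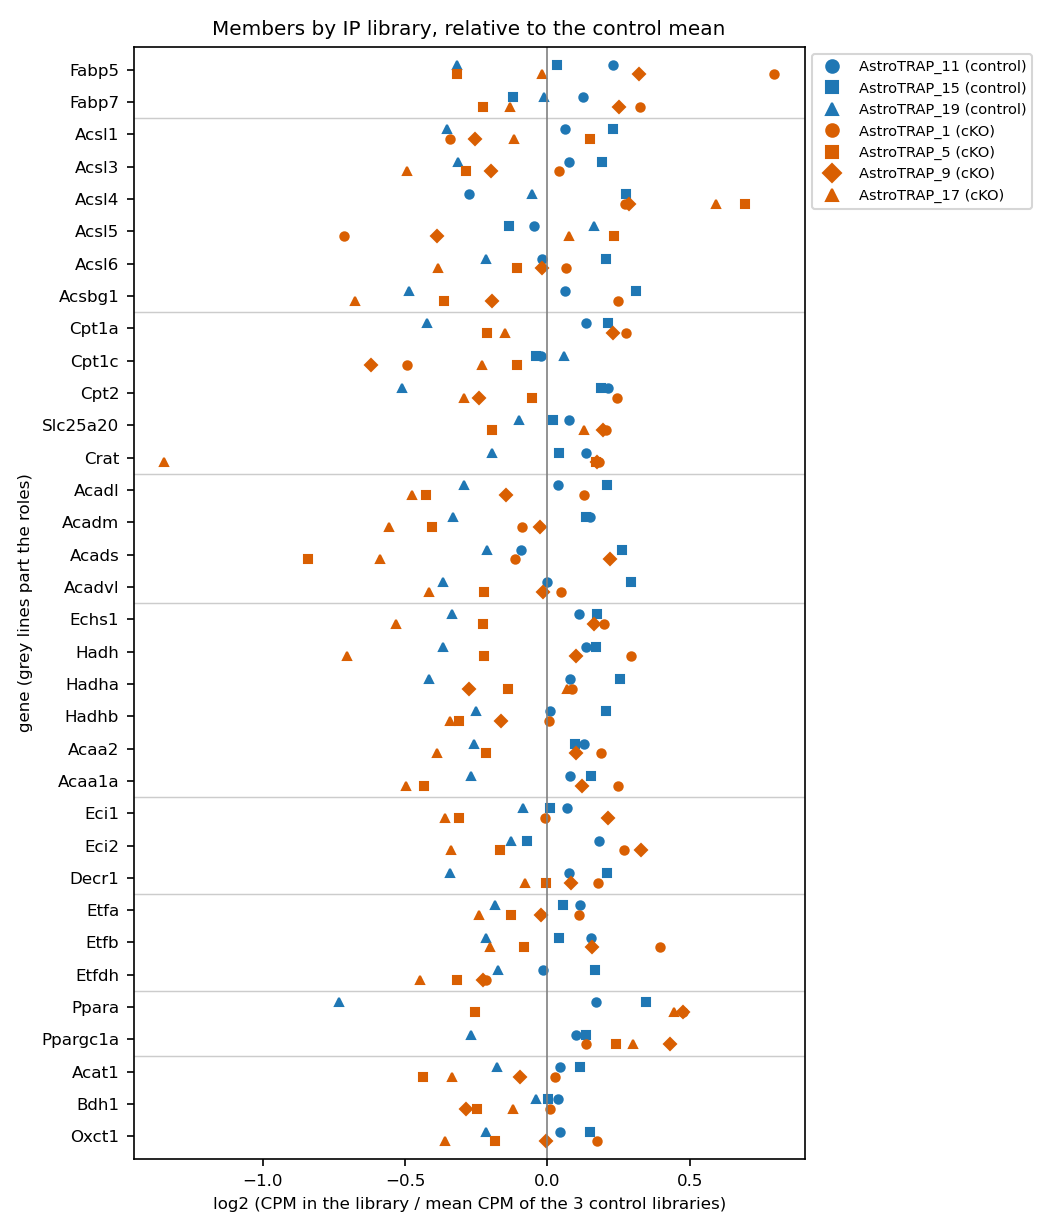
Log2 ratio of each library's CPM to the mean of the 3 control libraries, for each of the 34 genes, grouped by role (blue, control; orange, cKO; symbols, libraries). The genotypes overlap in 31 genes, and the outlying point at the left is Crat in AstroTRAP_17.

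Among the fatty acid binding proteins, Fabp5 and Fabp7, which carry long-chain fatty acids in the cytosol, neither differed by more than the spread between libraries. Fabp5 had 741, 647 and 506 CPM in the control libraries AstroTRAP_11, AstroTRAP_15 and AstroTRAP_19, and 1096, 507, 789 and 623 CPM in the cKO libraries AstroTRAP_1, AstroTRAP_5, AstroTRAP_9 and AstroTRAP_17. The high value of AstroTRAP_1 stood above all others, and 2 of the remaining cKO libraries lay among the controls. The log2 fold change of Fabp5 was 0.26 (SE 0.24), and without AstroTRAP_1 it was 0.020. Fabp7, a gene typical of astrocytes and their precursors, had 147, 124 and 134 CPM in control and 169, 116, 161 and 124 CPM in cKO libraries, in the same order, which is kept below. Its cKO libraries lay on either side of the controls, with a log2 fold change of 0.073 (SE 0.16). Of the counts of both genes, which were not adjusted for length, Fabp7 took 17.9% ± 2.66 in control and 16.4% ± 2.18 in cKO libraries (exact two-sided permutation test, p = 0.514, also 0.514 adjusted over 2 shares, n = 3 and 4). The smallest p that this design allows is 0.0571. The difference of -1.53 percentage points was -0.0028 without AstroTRAP_19, -0.54 without AstroTRAP_1 and -2.41 without AstroTRAP_15.

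The acyl-CoA synthetases join coenzyme A to a fatty acid, which commits it to oxidation or to lipid synthesis. Acsbg1, the synthetase of very long-chain fatty acids found mostly in brain, had 2533, 3012 and 1731 CPM in control and 2880, 1885, 2118 and 1518 CPM in cKO libraries. Its values spread widely within each genotype and overlapped, with a log2 fold change of -0.21 (SE 0.24). Acsl6, which prefers docosahexaenoic acid, had 975, 1138 and 849.9 CPM in control and 1033, 917, 974 and 758 CPM in cKO libraries. Those values overlapped too, with a log2 fold change of -0.10 (SE 0.15) that turned to 0.012 without AstroTRAP_15. For Acsl3, found at lipid droplets, it was -0.22 (SE 0.17). Acsl1 and Acsl5, found with mitochondrial oxidation and lipid storage in other tissues, had 13.7 ± 2.71 and 26.9 ± 2.91 CPM (SD, n = 3) in control. In cKO they had 12.5 ± 1.93 and 24.3 ± 6.99 CPM (SD, n = 4).

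Acsl4, the synthetase that prefers arachidonic acid, was the only one of the 6 with a higher mean in cKO. The gene lies on chromosome X from 142317993 to 142390802 (GRCm38) and had 11.8, 17.3 and 13.8 CPM in control and 17.2, 23.1, 17.4 and 21.5 CPM in cKO libraries. The lowest cKO library, AstroTRAP_1, lay just under the highest control library, AstroTRAP_15. The mean in cKO was 139% of control, a log2 fold change of 0.47 (SE 0.21) that did not pass (unadjusted p = 0.0503, adjusted p = 0.9996 in edgeR).

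The carnitine shuttle moves fatty acids into mitochondria, and its first enzyme, carnitine palmitoyltransferase 1, is the step that malonyl-CoA inhibits. Cpt1a, the main isoform of that enzyme outside muscle (chromosome 19, 3322326 to 3385735), had 124, 131 and 84.3 CPM in control and 137, 97.6, 133 and 102 CPM in cKO libraries. The control library AstroTRAP_19 was the lowest, and the rest of the values overlapped. The log2 fold change of Cpt1a was 0.053 (SE 0.18, 95% interval 0.782-fold to 1.38-fold), and its sign changed when AstroTRAP_19 was left out (-0.12).

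Cpt1c, a neuronal isoform located in the endoplasmic reticulum, which has little transferase activity (chromosome 7, 44958483 to 44974880), had 34.2, 33.8 and 36.2 CPM in control and 24.7, 32.2, 22.6 and 29.6 CPM in cKO libraries. All cKO libraries lay below all control libraries. No overlap of this kind, with cKO lower, was found for 2 of the 34 genes (5.88%) and for 2.76% of all tested genes. The mean of Cpt1c in cKO was 78.6% of control, with a log2 fold change of -0.35 (SE 0.17, unadjusted p = 0.0627, adjusted p = 0.9996 in edgeR). Of the counts of Cpt1a and Cpt1c together, Cpt1a took 75.9% ± 5.22 in control and 80.7% ± 5.16 in cKO libraries (exact two-sided permutation test, p = 0.343, or 0.514 adjusted over 2 shares, n = 3 and 4). The difference of 4.77 percentage points was 1.78 without AstroTRAP_19, 3.19 without AstroTRAP_9 and 6.62 without AstroTRAP_5. Within each genotype, Cpt1c was highest in the libraries with the highest sums of neuronal markers, AstroTRAP_19 in control and AstroTRAP_5 and AstroTRAP_17 in cKO. With the neuronal marker sum as a covariate the log2 fold change of Cpt1c was -0.37, and without those 3 libraries -0.53. Both fits were chosen after seeing the data, and the part of neuronal RNA in the Cpt1c values was not tested.

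Cpt2, the inner membrane transferase, had 37.3 ± 9.65 CPM (SD, n = 3) in control and 35.5 ± 6.22 CPM (SD, n = 4) in cKO. It lies on chromosome 4 of GRCm38 from 107903982 to 107923589, 11.19 Mb from the floxed gene, and its log2 fold change was -0.071 (SE 0.21). Slc25a20, the carnitine-acylcarnitine carrier, had a log2 fold change of 0.092 (SE 0.14). Crat, which moves short acyl groups between coenzyme A and carnitine, had 114, 107 and 90.6 CPM in control and 118, 117, 117 and 40.8 CPM in cKO libraries. The low value in cKO came from AstroTRAP_17, the shallowest library, while the other 3 cKO libraries nearly coincided. Its log2 fold change was -0.080 (SE 0.30) with that library and 0.17 without it.

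The acyl-CoA dehydrogenases open each round of mitochondrial oxidation, for acyl chains of different length. All 4 had a lower mean in cKO, although Acadvl turned to 0.032 on the log2 scale without AstroTRAP_15, and none passed. Acadl, for long chains, had 355, 399.9 and 282 CPM in control and 377, 257, 313 and 248 CPM in cKO libraries, which overlapped, with a log2 fold change of -0.21 (SE 0.18). Acadm, for medium chains, had 186, 185 and 134 CPM in control and 158, 127, 165 and 115 CPM in cKO libraries. Its cKO libraries lay below the upper controls but around the lowest control, with a log2 fold change of -0.25 (SE 0.17). The log2 fold changes were -0.27 (SE 0.25) for Acads, for short chains, and -0.14 (SE 0.17) for Acadvl, for very long chains. The summed level of the 4 genes was 762 ± 140 CPM (SD, n = 3) in control and 663 ± 115 CPM (SD, n = 4) in cKO, a difference smaller than either SD. The sum was lowest in AstroTRAP_17, AstroTRAP_5 and AstroTRAP_19, at 546, 587 and 612 CPM.

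The later steps of the round hydrate, oxidise and cleave the acyl chain. Hadhb, the thiolase subunit of the mitochondrial trifunctional protein, had 534, 613 and 446 CPM in control and 533, 428, 474 and 418 CPM in cKO libraries. Its log2 fold change was -0.20 (SE 0.15), while that of Hadha, the other subunit, was -0.059 (SE 0.18). The remaining log2 fold changes were -0.069 for Echs1, the short-chain hydratase, -0.085 for Hadh, the short-chain hydroxyacyl dehydrogenase, -0.060 for Acaa2, the mitochondrial thiolase, and -0.10 for Acaa1a, the peroxisomal thiolase. The standard errors of these 4 genes lay between 0.17 and 0.22. All 6 genes of these steps had a mean in cKO of 87.3% to 96.1% of control, within the spread of libraries, and with scaling to the astrocyte markers the log2 fold change of Hadha turned to 0.015. Acaa1b, the near-identical copy of Acaa1a, had at most 14 counts in any library, and with the counts of both copies summed the log2 fold change was again -0.10.

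The auxiliary enzymes handle unsaturated chains. Eci2, an enoyl-CoA isomerase, had 317, 267 and 257 CPM in control and 337, 249.8, 352 and 222 CPM in cKO libraries, with full overlap and a log2 fold change of 0.050 (SE 0.18). The mitochondrial isomerase Eci1 had a log2 fold change of -0.097 (SE 0.15), and Decr1, the dienoyl-CoA reductase, one of 0.045 (SE 0.15).

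The electron transfer flavoprotein and its oxidoreductase pass electrons from the acyl-CoA dehydrogenases to ubiquinone. Etfdh, the oxidoreductase (chromosome 3, 79603788 to 79628767), had 74.4, 84.5 and 66.7 CPM in control and 64.7, 60.2, 64.2 and 55.1 CPM in cKO libraries. Every cKO library lay below every control library, with AstroTRAP_19 closest to the cKO values. The mean in cKO was 81.2% of control, a log2 fold change of -0.30 (SE 0.13). Etfdh was the 1 gene of the 34 with an unadjusted p under 0.05. It did not pass over all genes (0.0454 unadjusted, adjusted p = 0.9996 in edgeR). Its sign held with each library left out, from -0.38 to -0.21. Etfb, the beta subunit of the flavoprotein, had 399, 369.7 and 309.5 CPM in control and 472, 339, 401 and 313 CPM in cKO libraries, which overlapped, with a log2 fold change of 0.085 (SE 0.16). Etfa, the alpha subunit, had 192 ± 20.4 CPM (SD, n = 3) in control and 184 ± 19.1 CPM (SD, n = 4) in cKO.

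Of the regulators, Ppara encodes the nuclear receptor that fatty acids activate, and Ppargc1a a coactivator of it and of the estrogen-related receptors. Ppargc1a (chromosome 5, 51454249 to 52115853) had 42.2, 43.2 and 32.6 CPM in control and 43.3, 46.5, 52.96 and 48.5 CPM in cKO libraries. All cKO libraries lay above all control libraries, though AstroTRAP_1 and AstroTRAP_15 nearly touched. No overlap with cKO higher was found for 1 of the 34 genes (2.94%) and for 2.35% of all tested genes. The log2 fold change of Ppargc1a was 0.28 (SE 0.15, unadjusted p = 0.0940, adjusted p = 0.9996 in edgeR), and it was 0.16 without AstroTRAP_19.

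Ppara (chromosome 15, 85734910 to 85806851) had 26.6, 30.1 and 14.2 CPM in control and 32.9, 19.8, 32.8 and 32.2 CPM in cKO libraries. The 2 low values, of AstroTRAP_19 and AstroTRAP_5, came from different genotypes. The log2 fold change of Ppara was 0.31 (SE 0.27), and without AstroTRAP_19 it was 0.051. Of 9 further regulators and genes of the fuel switch, 0 had an unadjusted p under 0.05. Their log2 fold changes ran from -0.34 (SE 0.47) for Rxra, the partner of Ppara on DNA, to 0.57 (SE 0.40) for Ucp2, a mitochondrial carrier. Rxra had 2.59 CPM in AstroTRAP_17, whereas the other cKO libraries had 13.4, 14.1 and 17.5 CPM and the controls 13.8 to 16.35 CPM. Among the 9 genes, Pdk4, the kinase that shuts pyruvate dehydrogenase when fat is burned, had a log2 fold change of 0.17 (SE 0.20). For Angptl4, a target of the fatty acid receptors, it was -0.080 (SE 0.49).

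Promoters were read for 29 of the 34 genes from RefSeq on GRCm38.p6, as 250 bases before and 50 after each listed start, 33 promoters in all. Fabp5, Crat, Acaa2, Decr1 and Acat1 were not matched in the table used here. The motifs were sought on both strands as exact letters, and the matches are shown to give the sequence around the motifs of the factors that work with Ppargc1a and Ppara. The estrogen-related receptor element, searched as TCAAGGTCA, was in 1 of the 33 promoters, that of Acsl6, and in 0.423% of all 32851 promoters. The core of the NRF1 site, searched as CGCATGCGC, was in 3 of the 33, those of Acadm, Etfdh and Ppara, and in 1.75% of all promoters. The element of the fatty acid receptor, searched as AGGTCA repeated in the same direction after 1 base, was in 0 of the 33 and in 0.0396% of all promoters, and its AGGTCA overlaps the estrogen-related receptor element. A match describes the letters and shows no binding. The Ppara window lies inside the gene interval given above, before a listed start that is not the outermost. The lines below give 60 bases on the strand of the gene, 5′ to 3′, with the matched letters in capitals.
Acsl6, chr11:54303632-54303691, plus strand, motif on the opposite strand: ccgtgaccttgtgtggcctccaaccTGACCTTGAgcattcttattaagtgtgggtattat
Acadm, chr3:153944768-153944827, minus strand: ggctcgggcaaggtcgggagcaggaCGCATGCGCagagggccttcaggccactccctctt
Etfdh, chr3:79628860-79628919, minus strand: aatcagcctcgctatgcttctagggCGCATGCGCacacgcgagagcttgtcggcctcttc
Ppara, chr15:85735716-85735775, plus strand: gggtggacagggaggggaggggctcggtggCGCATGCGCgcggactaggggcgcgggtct

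None of the 3 ketone body enzymes among the 34 passed, and the genotypes overlapped in each. Oxct1, the transferase that activates acetoacetate, the committed step of ketone body use (chromosome 15, 4026428 to 4155344), had 576.5, 619 and 481 CPM in control and 630.4, 492, 556 and 436 CPM in cKO libraries. The library with the highest value and that with the lowest were both cKO, and the log2 fold change was -0.081 (SE 0.16, 95% interval -0.43 to 0.27). Bdh1, the mitochondrial hydroxybutyrate dehydrogenase, had 144, 139.9 and 136 CPM in control and 141, 118, 115 and 129 CPM in cKO libraries. AstroTRAP_1 lay among the controls and the other cKO libraries below them, with a log2 fold change of -0.16 (SE 0.12). Acat1, the thiolase that acts both in ketone body synthesis and use, had 292, 307 and 251 CPM in control and 288, 209, 265 and 224 CPM in cKO libraries. The cKO values reached from among the controls to below them, with a log2 fold change of -0.20 (SE 0.14).

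**Figure D4:**
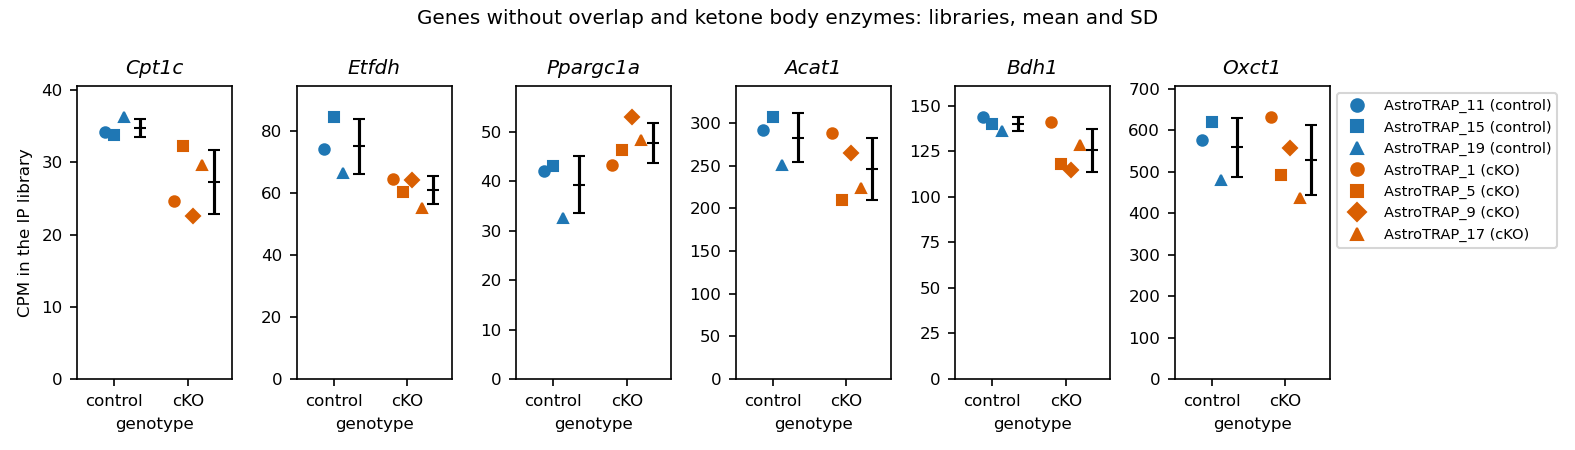
CPM of the 3 genes without overlap between the genotypes, Cpt1c, Etfdh and Ppargc1a, and of the ketone body enzymes Acat1, Bdh1 and Oxct1 in each IP library (symbols), with the mean and SD of each genotype (black). Cpt1c and Etfdh lie lower and Ppargc1a higher in all 4 cKO libraries than in the 3 control libraries, whereas the ketone body enzymes overlap.

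Other genes of these routes were taken from a list of which 50 are reported here and 46 could be tested. None of these passed in edgeR's quasi-likelihood or exact test or in DESeq2, 21 were higher and 25 lower in cKO, and the median log2 fold change was -0.027. An unadjusted p under 0.05 was found for 0 of the 46, beside 2.58% of all tested genes. Of the ketone body genes outside the 34, Bdh2, a cytosolic hydroxybutyrate dehydrogenase, had 9.18 ± 6.52 CPM (SD, n = 3) in control and 3.42 ± 2.70 CPM (SD, n = 4) in cKO, with a wide spread in either genotype. Its log2 fold change of -1.42 (SE 0.68, 95% interval -2.92 to 0.078) was the largest of the 46, and it did not pass (unadjusted p = 0.0610, adjusted p = 0.9996 in edgeR).

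No overlap with cKO higher was found for Pecr, a peroxisomal enoyl-CoA reductase, which had 11.6 ± 0.884 CPM (SD, n = 3) in control and 15.9 ± 2.13 CPM (SD, n = 4) in cKO. Lack of overlap with cKO lower was found for Acad9, a dehydrogenase that also helps to assemble complex I, at 53.7 ± 1.98 and 44.2 ± 2.95 CPM, and for Hsd17b10, a mitochondrial dehydrogenase, at 113.5 ± 1.06 and 102 ± 8.17 CPM. Of the 46 tested genes, 1 thus lay higher without overlap (2.17%, beside 2.35% of all tested genes) and 2 lower (4.35%, beside 2.76%). Peroxisomal oxidation had 12 tested genes, of which 3 were higher and 9 lower, with a median log2 fold change of -0.031. The 95% interval lay within 2-fold for 34 of the 46. Cpt1b, Cd36, Acaa1b and Acacb were not tested, with at most 14 counts in any library.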

How the data were processed

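According to the methods and the submitters' processing notes, single-end Smart-seq2 reads were trimmed with cutadapt 1.15 and assigned to GENCODE vM17 transcripts (GRCm38) with kallisto 0.44.0. The authors deposited the estimated counts per gene symbol, not scaled for depth or length, for 18 samples. Kallisto divides reads between transcripts of like sequence, so counts of genes with close copies are less certain. Of the 18 columns, the 7 that the study's source data name as IP samples of a genotype were used, and 11 were not. The columns carry no replicate number.

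Counts were rounded, genes of low count removed with filterByExpr, and libraries scaled by TMM. Genotypes were compared in R 4.3.3 by edgeR (4.0.16; glmQLFit and glmQLFTest), and p-values were adjusted over all genes by the Benjamini-Hochberg method, with a threshold of 0.05. Standard errors and 95% intervals were taken from its F statistic, and log2 values are fitted, not shrunk. The study's own test, edgeR's exact test, and DESeq2 1.42.0 were alternatives, beside other scalings, other filters and leaving out each library. The quasi-likelihood test, the exact test and DESeq2 were run on simulated counts first, and the permutation test of the shares was not. In those counts 200 of 13039 genes, none of low mean count, were made to differ, up or down. Equal numbers were set at 2-fold and at a larger change. The quasi-likelihood test called 43 of the genes set at 2-fold, fewer than it missed. It called 81 of those set at the larger change, beside 8 unchanged genes. A gene with a true 2-fold difference could thus be missed. Shares were formed from raw counts, since no transcript length was at hand. At 3 counts, a gene is seen down to 0.222 CPM in the shallowest library, which covers counting error only. No pair of libraries of 1 genotype agreed within counting noise (lowest chi-square per degree of freedom 32.9).

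The 34 genes, the other lists and the tests were chosen with earlier results of these data known. All 34 genes are named, with library values, log2 fold change and standard error for those of unadjusted p under 0.05 or without overlap, for the most counted gene of each role, and for Cpt1a, Ppara, Acat1, Bdh1 and Oxct1. Library values of other genes, and the genes named from the other list, were added after their values were seen. Some genes of that list are not reported here, and its counts leave them out.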

Additional observations from a re-analysis of the deposited data

Results flagged for a closer look

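Among the 4 cKO libraries, 80 genes (the 34 and the 46 tested genes of the other list) were examined for 1 library far from the rest. There were 2 such genes, where about 1 in 20, or 4, arise by chance. Crat had 40.8 CPM in AstroTRAP_17, and the mean of the other 3 libraries was 117 CPM. Ppara had 19.8 CPM in AstroTRAP_5, against a mean of 32.6 CPM in the other 3.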

How the results depend on the processing

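Of the 34 genes, 0 passed in any alternative that was run. By unadjusted p under 0.05, the count of 1 became 0 with library size only, with astrocyte marker scaling, without the low-count filter and with the exact test. It was 4 with the neuronal marker sum as a covariate (4.35% of all tested genes) and 4 without the 3 libraries richest in neuronal markers (6.45% of all tested genes), the alternatives chosen after seeing the data. It ranged from 0 to 2 with each library left out, with 0 without AstroTRAP_11 and 2 without AstroTRAP_19. Genes called over all genes, 5 higher and 1 lower, became 10 and 8 with the exact test, 13 and 8 with DESeq2, 12 and 17 without the 3 libraries, 7 and 2 with the covariate, 5 and 2 with library size only, and 5 and 0 with astrocyte marker scaling. With each library left out they ranged from 4 to 5 and from 0 to 1, with 0 lower without AstroTRAP_15. On the simulated counts the exact test called 56 genes set at 2-fold, 89 set at the larger change and 23 unchanged genes. For DESeq2 these were 58, 88 and 34, and 8 unchanged genes were called by the quasi-likelihood test. The cause of the differences between these settings was not tested. With scaling to astrocyte markers, 41.4% of all tested genes had a negative log2 fold change.

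The median log2 fold change of the 34 genes ranged from -0.19 without AstroTRAP_19 to -0.0007 without AstroTRAP_15. Signs turned for small log2 fold changes. Without the 3 libraries they were 0.085 for Crat, 0.035 for Echs1, 0.045 for Hadh, 0.028 for Acaa2, 0.066 for Acaa1a, 0.063 for Eci1 and -0.018 for Decr1, and with astrocyte marker scaling 0.015 for Hadha. With each library left out they ranged from -0.020 to 0.16 for Fabp7, -0.20 to 0.012 for Acsl6, -0.12 to 0.17 for Cpt1a, -0.27 to 0.047 for Cpt2, -0.18 to 0.17 for Crat, -0.30 to 0.032 for Acadvl, -0.21 to 0.057 for Echs1, -0.24 to 0.073 for Hadh, -0.23 to 0.087 for Hadha, -0.18 to 0.035 for Acaa2, -0.24 to 0.0080 for Acaa1a, -0.062 to 0.16 for Eci2, -0.10 to 0.16 for Decr1, -0.035 to 0.17 for Etfb and -0.18 to 0.0018 for Oxct1. The other 19 genes kept their sign there.

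No paired analysis was possible because the columns of the count table carry no replicate numbers. The sum of Fabp5 with its pseudogenes and the shares scaled by length were not run.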
